A study of Homo sapiens with 12 samples.

Results

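Small nucleolar RNA (snoRNA) genes were followed in lymphoma cell lines carrying inducible hairpins against NF-kB subunits. The members were the genes whose symbol starts with SNORA or SNORD and a digit, without the SNORD115 and SNORD116 families, antisense genes and host genes, and only probe sets assigned to 1 symbol were used. This gave 136 members of the 18417 genes measured, from 139 probe sets, of which 75 carried C/D box symbols (SNORD) and 61 H/ACA box symbols (SNORA). A further 57 snoRNA probe sets outside those families are assigned to several symbols and are not members.

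SnoRNAs are short nuclear RNAs that guide chemical modification of ribosomal and spliceosomal RNA. C/D box snoRNAs direct 2'-O-methylation by fibrillarin, and H/ACA box snoRNAs direct pseudouridylation by dyskerin. In human cells most are encoded in introns of other genes, many of them genes for ribosomal proteins or for long non-coding RNAs such as GAS5 and the SNHG genes, and are released from the spliced intron by debranching and trimming. RefSeq gave lengths of 60 to 236 bases to the members, with a median of 74 for the C/D and 134 for the H/ACA members. Of the 136, 128 lay inside exactly 1 other gene, 6 inside several, and SNORD32B and SNORD13 inside none. The single containing genes were 84 in number and held 32 members in ribosomal protein genes, 24 in SNHG genes, GAS5 or ZFAS1, 6 in MEG8 on chromosome 14 and 66 in other genes.

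The 12 arrays comprised 4 of U-H01 labelled induced and 4 of U-H01 uninduced, and 2 of HBL-1 induced and 2 of HBL-1 uninduced. U-H01 stems from Hodgkin lymphoma. HBL-1 stems from the activated B-cell-like (ABC) form of diffuse large B-cell lymphoma. Per the labels all groups carried the hairpins, against RelB and cRel, and only the induced arrays came from cells given doxycycline. U-H01 was sampled from populations B1 and B2 and HBL-1 from population C, each at time points 1 and 2. The labels name neither the hairpin behind each letter nor the length of the time points. The design text names wild type cells and RelA as well.

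The knock-down targets were checked first. RELA, RELB and REL, the genes of RelA, RelB and cRel, differed by 0.24 ± 0.08, -0.15 ± 0.09 and 0.20 ± 0.09 (log2, SE of the limma fit) between U-H01 labelled induced and uninduced arrays, and only the higher RELA passed the test (adjusted p = 0.0230). In HBL-1 the 3 differences were -0.17 ± 0.11, -0.19 ± 0.12 and -0.49 ± 0.12, none of which passed. Arrays of 1 group correlated at 0.991 to 0.996 over all probe sets with 1 symbol, whereas U-H01 labelled induced and uninduced arrays correlated at 0.893 to 0.910, and uninduced U-H01 and HBL-1 arrays at 0.886 to 0.899. A check of sample identity set 4 of the 8 arrays of U-H01 apart from the others. Some defining markers also differed: CD79A, a B-cell receptor chain, averaged 11.04 in U-H01 labelled induced arrays and 5.73 in uninduced ones, and TNFRSF8, which encodes the Hodgkin marker CD30, 11.59 and 6.89 (log2). They are examples of rises, and the lists were mixed. Of 6 measured B-lineage markers 3 rose and 1 fell, and of 6 Hodgkin cell markers 3 rose and 2 fell. Every U-H01 contrast of induction below therefore compares arrays by their labels, and induction cannot be told apart from a difference between cell populations. No label gives separate cultures for arrays of 1 group, so p-values rest on the spread among these arrays, which may be technical. In RNA of whole cultures fewer expressing cells and less RNA per cell cannot be told apart.

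The first comparison asked how the snoRNA genes stood in U-H01 cells labelled induced. Of the 136 members, 80 passed the test (58.8%), 66 higher and 14 lower, where 45.8% of all genes passed, 22.3% higher and 23.5% lower. The median difference of the members was 0.24 (log2), beside 0.03 for all genes, and 53 members had all 4 labelled induced arrays above all 4 uninduced arrays, a pattern that 20% of all genes showed. These counts hold relative to the whole array. In a scaling chosen after seeing the data, the median of the members was set to 0 on each array. It shifts every gene's difference by -0.50, and 24 members were then called higher and 68 lower. The members' median difference became -0.26, not 0. The share of all genes called under this scaling was not counted, here or below. Scaled counts therefore do not set the members apart from other genes. The 4 largest rises belonged to C/D members in SNHG and ribosomal protein genes, and 3 of the 6 largest falls to the SNORA71 genes of SNHG17. The level of the members as a group moved as well. The median of the C/D members lay between 7.61 and 7.72 on the U-H01 labelled induced arrays and between 6.71 and 6.94 on the uninduced ones. For the H/ACA members the medians ran from 7.04 to 7.08 on the labelled induced arrays and from 6.63 to 6.78 on the uninduced ones.

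**Figure D1:**
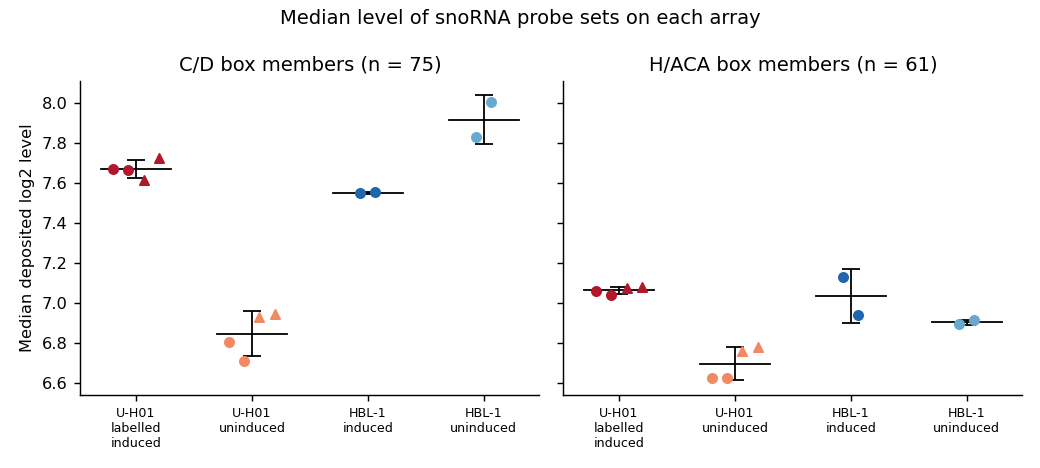
Median deposited log2 level of the 75 C/D and the 61 H/ACA members on each array, by group. Points are arrays (triangles: population B2), and black lines and bars are the mean ± SD of the group (n = 4 for U-H01, n = 2 for HBL-1). For both box classes every U-H01 labelled induced array lies above every U-H01 uninduced array, and for the C/D members every HBL-1 induced array lies below every HBL-1 uninduced array.

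SNORD50A and SNORD50B, C/D snoRNAs that lie in SNHG5 on chromosome 6 and have been found to bind K-Ras, had the largest rises. SNORD50B had 7.81, 7.88, 7.34 and 7.36 (log2) on the U-H01 labelled induced arrays, against 5.32, 4.63, 5.20 and 5.07 on the uninduced arrays. SNORD50A had 8.70, 8.92, 8.66 and 8.69 on the labelled induced arrays, against 6.21, 6.33, 6.47 and 6.34 on the uninduced arrays. The groups did not overlap for either, and both snoRNAs stood lower on each uninduced U-H01 array than on each labelled induced one. The differences were 2.54 ± 0.15 for SNORD50B (5.83-fold, adjusted p = 1.94e-08) and 2.41 ± 0.10 for SNORD50A (5.30-fold, adjusted p = 4.94e-10).

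SNORD49A, a C/D member in SNHG29, had 8.37, 8.06, 8.30 and 8.12 on the U-H01 labelled induced arrays, against 6.12, 6.04, 6.23 and 6.15 on the uninduced arrays. SNORD36B, in the gene of ribosomal protein L7a, had 8.20, 8.16, 8.41 and 8.04 on the labelled induced arrays, against 6.44, 6.35, 6.50 and 6.46 on the uninduced arrays. Neither pair of groups overlapped, with differences of 2.08 ± 0.08 (adjusted p = 2.81e-10) and 1.76 ± 0.08 (adjusted p = 2.75e-09). SNHG29 and RPL7A, their host genes, rose by 0.87 ± 0.12 and 1.21 ± 0.08.

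SNORA70F, an H/ACA member in COBLL1, was the H/ACA gene with the largest fitted rise. It had 5.90, 5.90, 5.15 and 5.41 on the U-H01 labelled induced arrays, against 3.87, 3.96, 3.62 and 3.97 on the uninduced arrays, which lie below the array lower quartiles of 4.18 to 4.28. The difference was 1.74 ± 0.11 (adjusted p = 5.95e-08), and COBLL1 itself, at 3.61 to 3.91 on the uninduced arrays, was higher by 5.004 ± 0.09. Since levels below the lower quartile are near background, where a difference is understated, both differences are fitted values that may be too small. SNORA70F belongs to 6 measured copies of SNORA70, of which 3 rose and 3 did not pass the test. Signal of near-identical copies cannot be told apart with certainty on these arrays.

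SNORD13, known as U13, guides acetylation of the small subunit rRNA together with NAT10 and is transcribed from a promoter of its own. It had 10.68, 10.38, 10.79 and 11.08 on the U-H01 labelled induced arrays, against 9.23, 9.10, 9.21 and 8.90 on the uninduced arrays, without overlap. The difference was 1.62 ± 0.14 (adjusted p = 8.07e-07). Of its 3 measured pseudogenes SNORD13P3 rose by 1.48 ± 0.18, SNORD13P2 fell by 0.28 ± 0.10 and SNORD13P1, at a mean of 2.69 in labelled induced and 2.71 in uninduced arrays, did not pass the test. SNORD13P3 lies in KIF9, whose own difference was -0.27 ± 0.13 (adjusted p = 0.116), and its sequence resembles that of SNORD13, so the signal of both cannot be told apart.

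All 3 measured SNORA71 genes, which lie in SNHG17 on chromosome 20, fell. SNORA71A had 7.96, 7.70, 7.96 and 7.71 on the U-H01 labelled induced arrays, against 9.18, 9.11, 9.17 and 9.16 on the uninduced arrays. Its difference was -1.32 ± 0.09 (adjusted p = 5.59e-08), and those of SNORA71C and SNORA71D were -1.07 ± 0.11 and -0.75 ± 0.10. No labelled induced array reached any uninduced array for these 3 genes, and SNHG17 itself fell by 1.06 ± 0.10. SNORA22, on chromosome 7 inside CCT6P1 and LINC03006, had 8.07, 7.61, 7.59 and 8.16 on the labelled induced arrays, against 9.42, 9.10, 8.65 and 8.81 on the uninduced arrays (-1.14 ± 0.17, adjusted p = 0.000119). SNORD63 in HSPA9 (-0.75 ± 0.11) and SNORA28 in EIF5 (-0.54 ± 0.13) completed the 6 largest falls without overlap, and HSPA9 and EIF5 also fell, by 0.42 ± 0.10 and 0.66 ± 0.09.

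**Figure D2:**
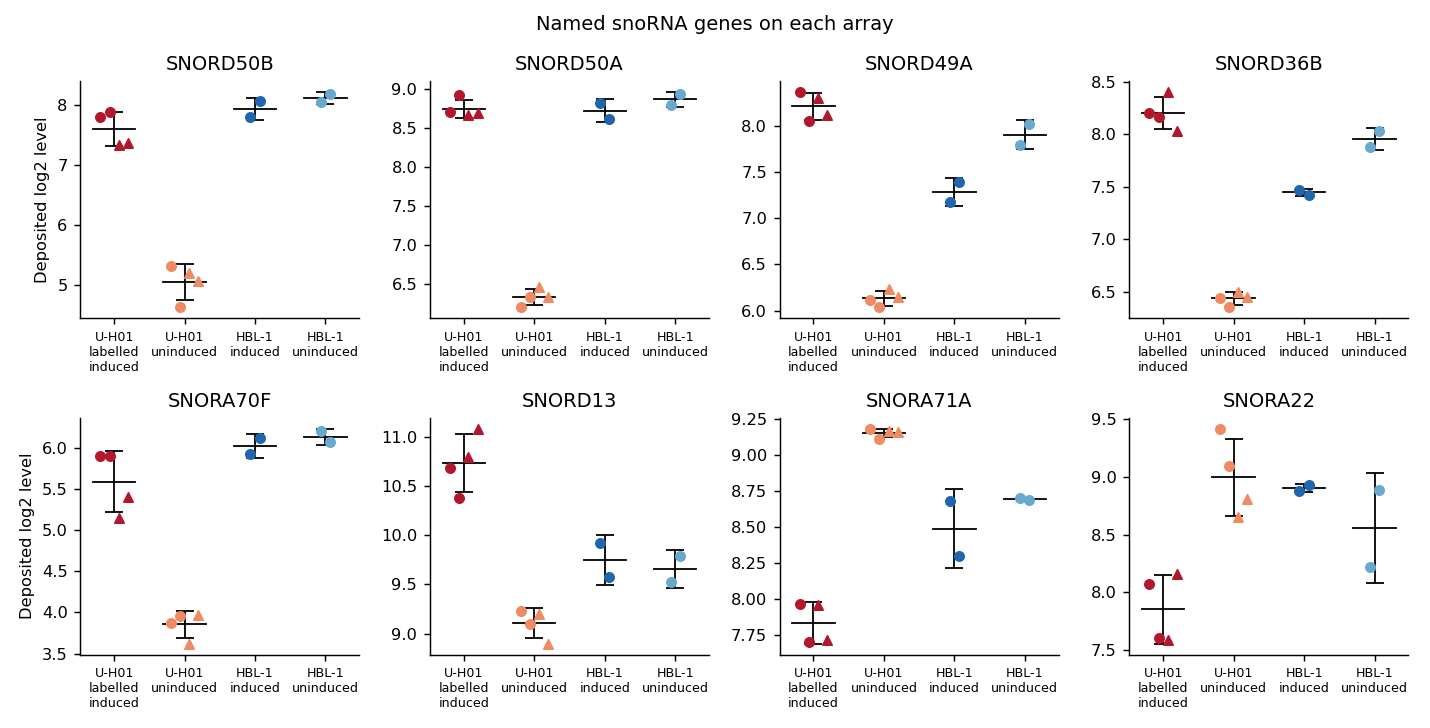
Deposited log2 levels of 8 named snoRNA genes on each array, with the mean ± SD of each group (n = 4 for U-H01, n = 2 for HBL-1). Points are arrays and triangles are population B2; axes differ between panels and do not start at 0. For SNORD50B, SNORD50A, SNORD49A, SNORD36B, SNORA70F and SNORD13 the U-H01 labelled induced arrays lie above the U-H01 uninduced ones, and for SNORA71A and SNORA22 below them.

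By box class, 39 C/D members rose and 5 fell, with a median of 0.32, and 27 H/ACA members rose and 9 fell, with a median of 0.16. Scaled on the members' median, the counts were 19 higher and 35 lower for C/D members and 5 higher and 33 lower for H/ACA members. By containing gene, 21 of the 32 members in ribosomal protein genes rose and 1 fell, with a median of 0.51, and scaled on the members' median 8 were higher and 10 lower, with a median of 0.00. That fall was SNORD33 in RPL13A (-0.49 ± 0.13, adjusted p = 0.00587), a C/D snoRNA reported in lipotoxic stress. In ribosomal protein genes the C/D members (13 of 20 higher, median 0.52) and the H/ACA members (8 of 12 higher, median 0.49) had like counts. SNORA10 in RPS2 was the H/ACA member with the largest difference in this class (1.38 ± 0.10).

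Of the 24 members in SNHG genes, GAS5 or ZFAS1, 14 rose and 4 fell, and on the scaled values 8 were higher and 9 lower. GAS5, a growth arrest-associated non-coding RNA, held 7 members, of which 6 rose, by 0.54 ± 0.11 for SNORD78 to 1.21 ± 0.15 for SNORD77. The remaining one, SNORD44, differed by 0.29 ± 0.13 (adjusted p = 0.0797). Both SNHG1 members rose, SNORD30 by 1.18 ± 0.17 and SNORD28 by 0.98 ± 0.09, and so did both members in RACK1, a ribosome-associated scaffold gene, SNORD96A by 1.13 ± 0.10 and SNORD95 by 0.75 ± 0.09. On the values scaled on the members' median these 4 genes remained called as higher, and of the GAS5 members 2 were called higher and 0 lower.

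The 6 members of the imprinted chromosome 14 cluster, from the SNORD113 and SNORD114 families in MEG8, gave no calls in any comparison. Their values lay between 2.64 and 4.13 over all 12 arrays, below the lower quartile of each array. Levels of this size are near background, where a fold change is understated. The other 66 members with a single host had 27 rises and 8 falls, and a median of 0.14, against 7 higher and 39 lower on the scaled values.

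**Figure D3:**
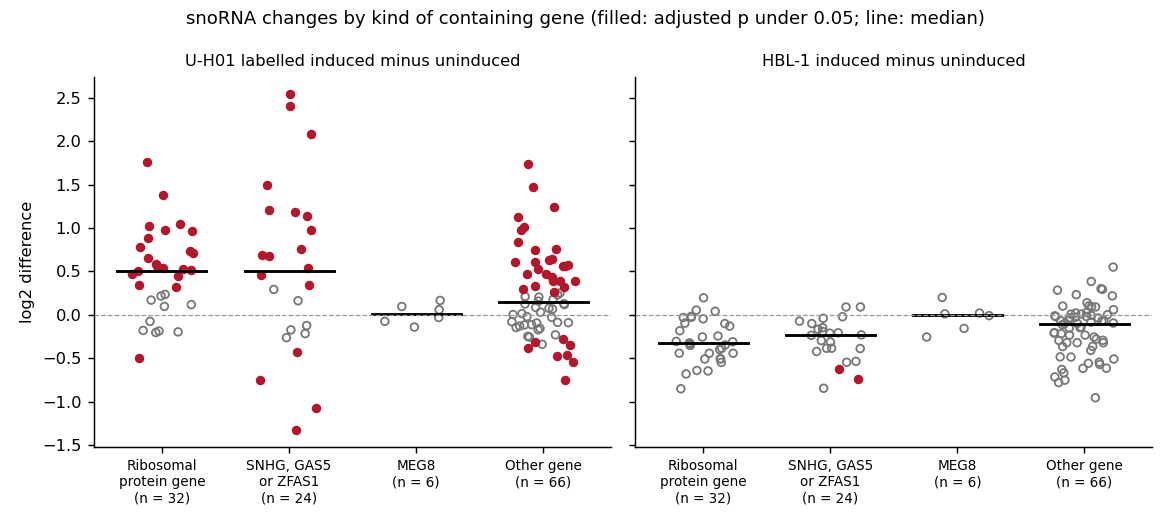
Log2 difference of each member by kind of containing gene, for U-H01 labelled induced minus uninduced and HBL-1 induced minus uninduced. Filled points passed an adjusted p under 0.05 and lines are medians, which lie at 0.51 and -0.33 for ribosomal protein genes, 0.50 and -0.23 for SNHG, GAS5 or ZFAS1, 0.01 and 0.00 for MEG8 and 0.14 and -0.11 for other genes.

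Because an intronic snoRNA is made from its host transcript, each member was set beside its host. The host was measured for 80 members in 60 hosts. In U-H01 labelled induced minus uninduced arrays, member and host differences correlated across these 80 pairs at Pearson r = 0.60 and Spearman rho = 0.65, as a description only, since pairs share hosts, arrays and any effect of base composition. Of the 50 members that passed the test, the host passed in the same direction for 35, in the opposite direction for 3 and did not pass for 12. The 3 opposite pairs were SNORA38 (-0.35 ± 0.09) in PRRC2A (1.01 ± 0.08), SNORA5C (-0.32 ± 0.08) in TBRG4 (0.33 ± 0.08) and SNORD56B (0.33 ± 0.12) in SIPA1L1 (-0.41 ± 0.12). Members of 1 host differed less among themselves than members overall. Over the 69 members of the 25 hosts that hold more than 1, the SD of the difference was 0.63 over all of them and 0.25 within hosts. The probes of an intronic snoRNA can also pick up unspliced host RNA, and mature and unspliced RNA cannot be told apart in these values.

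**Figure D4:**
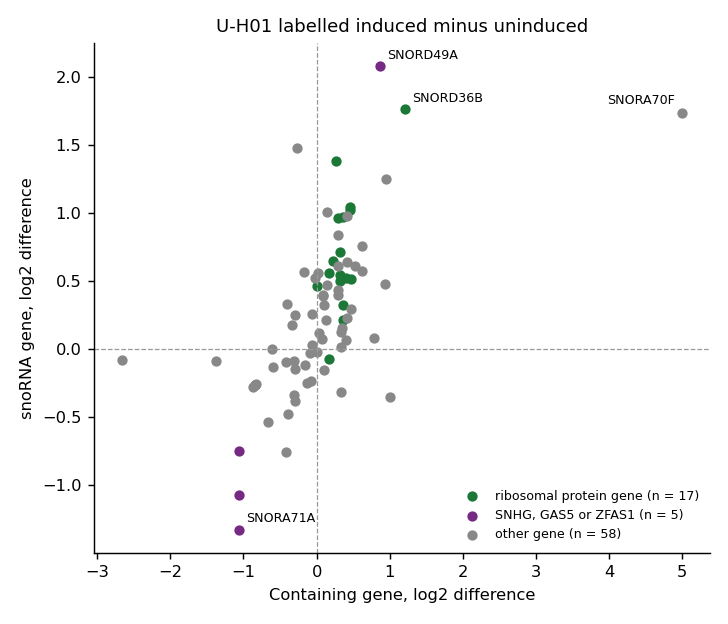
Log2 difference between U-H01 labelled induced and uninduced arrays of 80 members (y axis) against that of the gene that contains each (x axis). Each point is 1 member, and 35 of the 50 members that passed the test have a host called in the same direction. SNORA70F stands at the far right, with its host COBLL1 at 5.004, and the 3 SNORA71 genes in SNHG17 at the lower left.

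The start regions of 4 non-coding host genes are printed, chosen after the values were seen, because their members are among those named by size: SNHG5 (chr6:85678684-85678983, minus strand) holds SNORD50A and SNORD50B, SNHG19 (chr16:2155309-2155608, minus strand) holds SNORD60, SNHG29 (chr17:16438737-16439036, plus strand) holds SNORD49A and SNHG17 (chr20:38435279-38435578, minus strand) holds the SNORA71 genes. Each 300-base window is the RefSeq sequence of build GRCh38.p14, 5' to 3' on the gene's strand, around its annotated start. Capitals mark CTTT on the sense strand where it begins at the annotated first base of the transcript, as in the pyrimidine-rich starts of ribosomal protein genes, and matches of either strand to the NF-kB consensus.
SNHG5: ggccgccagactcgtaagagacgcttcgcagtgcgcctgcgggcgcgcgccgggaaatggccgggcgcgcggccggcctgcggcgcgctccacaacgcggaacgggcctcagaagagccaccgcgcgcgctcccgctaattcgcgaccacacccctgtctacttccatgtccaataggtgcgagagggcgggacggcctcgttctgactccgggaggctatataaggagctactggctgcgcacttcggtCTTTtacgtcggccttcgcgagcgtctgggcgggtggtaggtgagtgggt
SNHG19: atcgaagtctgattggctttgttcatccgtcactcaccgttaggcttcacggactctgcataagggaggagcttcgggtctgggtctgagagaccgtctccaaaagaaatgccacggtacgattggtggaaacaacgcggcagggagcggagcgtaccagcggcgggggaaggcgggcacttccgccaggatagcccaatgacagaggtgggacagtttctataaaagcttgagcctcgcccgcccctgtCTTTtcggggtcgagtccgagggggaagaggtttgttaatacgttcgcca
SNHG29: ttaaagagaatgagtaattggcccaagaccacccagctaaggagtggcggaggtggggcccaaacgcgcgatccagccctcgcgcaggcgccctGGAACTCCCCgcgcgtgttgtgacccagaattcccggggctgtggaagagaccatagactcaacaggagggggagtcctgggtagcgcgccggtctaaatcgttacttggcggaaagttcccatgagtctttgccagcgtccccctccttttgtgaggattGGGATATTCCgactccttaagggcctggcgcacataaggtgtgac
SNHG17: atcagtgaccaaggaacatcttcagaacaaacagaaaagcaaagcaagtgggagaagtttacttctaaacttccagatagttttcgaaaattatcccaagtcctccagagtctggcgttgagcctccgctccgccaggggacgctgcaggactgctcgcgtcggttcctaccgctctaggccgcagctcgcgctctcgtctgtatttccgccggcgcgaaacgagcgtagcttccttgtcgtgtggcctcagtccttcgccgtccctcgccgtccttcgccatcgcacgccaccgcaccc
SNHG5 and SNHG19 hold CTTT at the annotated start, SNHG29 holds 2 matches to the NF-kB consensus that do not overlap each other, and SNHG17 holds neither. Among the 69 hosts with a window, 9 had CTTT at the start (13.04%), where 251 of all 27305 windows did (0.919%). They were 4 of 12 ribosomal protein genes, 4 of 12 SNHG, GAS5 or ZFAS1 genes and 1 of 45 other genes. A match to the NF-kB consensus was found in 6 of the 69 host windows (8.70%) and in 10.8% of all windows. A match describes these letters and shows no binding site.

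The same comparison in HBL-1 asked for the response of the other line. Of the 136 members, 2 passed the test (1.47%), both lower, where 0.603% of all genes passed, 0.418% higher and 0.185% lower. They were SNORD49A in SNHG29 and SNORD1A in SNHG16. SNORD49A had 7.18 and 7.39 on the induced arrays, against 7.79 and 8.02 on the uninduced arrays (-0.62 ± 0.11, adjusted p = 0.0263). SNORD1A had 6.10 and 6.35 on the induced arrays, against 6.95 and 6.97 on the uninduced arrays (-0.74 ± 0.15, adjusted p = 0.0487). The groups did not overlap for either gene. With the population and time point as a replicate block, 0 members passed, and the adjusted p of both genes ran from 0.0511 to 0.0669. Leaving out any 1 of the HBL-1 arrays also left 0 calls, and fitting HBL-1 alone gave 35, of which 34 were lower. That last fit has few arrays to estimate the spread from. The share of all genes called in it was not counted, so its 35 calls do not set the members apart.

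Below the threshold the members leaned to lower values on the HBL-1 induced arrays. Their median difference was -0.21, beside -0.01 for all genes, 108 of 136 differences were negative, and 49 members had an unadjusted p under 0.05 (36%), as did 9.74% of all genes. Both induced arrays lay below both uninduced arrays for 65 members (47.8%) and for 21.6% of all genes. The C/D members had a median of -0.26 and the H/ACA members one of -0.07, and members in ribosomal protein genes one of -0.33. The member furthest down was SNORD20, a C/D snoRNA in the nucleolin gene NCL, with 5.27 and 5.73 on the induced arrays, against 6.29 and 6.61 on the uninduced arrays (-0.95 ± 0.20, adjusted p = 0.0609). The host and member differences of HBL-1 correlated at r = 0.08 over the same 80 pairs.

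The change with the labels differed between the lines for 63 members (46.3%) when the difference itself was tested in limma, 58 of them higher in U-H01, where 32.4% of all genes passed, 15.4% higher and 17% lower. This test was not repeated with the scaling on the members' median or under any other alternative. Its lean to higher changes in U-H01 therefore holds only relative to the whole array. For SNORD50B, whose HBL-1 difference was -0.19 ± 0.21, the U-H01 change exceeded the HBL-1 change by 2.73. For SNORD49A, which rose in U-H01 and was lower in HBL-1, it exceeded it by 2.70.

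Between the lines without induction, U-H01 uninduced arrays stood lower than HBL-1 uninduced arrays for most members. Of 136, 92 passed the test (67.6%), 19 higher and 73 lower, where 42.8% of all genes passed, 20.7% higher and 22.1% lower. Without the first HBL-1 uninduced array there were 72 calls, 6 higher and 66 lower. The median was -0.49, beside -0.03 for all genes. The C/D members had 6 calls higher and 48 lower with a median of -0.66, and the H/ACA members 13 higher and 25 lower with a median of -0.22. Members in ribosomal protein genes gave 25 lower calls and 1 higher of 32, and all 7 GAS5 members were lower, by 0.61 to 1.24 on the log2 scale. Scaled on the members' median, which shifts every gene's difference by 0.60 here, 59 members were higher and 42 lower, with 25 and 27 for C/D, 34 and 15 for H/ACA, 7 and 13 in ribosomal protein genes and 0 and 2 in GAS5. These contrasts share their uninduced arrays with those of induction above and are no separate evidence on them.

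SNORD50B showed the largest difference, with 5.32, 4.63, 5.20 and 5.07 on the U-H01 uninduced arrays, against 8.05 and 8.19 on the HBL-1 uninduced arrays (-3.07 ± 0.18, 8.39-fold, adjusted p = 2.92e-08). SNORD50A (-2.53 ± 0.12), SNORA70F (-2.28 ± 0.14), SNORD30 in SNHG1 (-2.26 ± 0.21), SNORD60 in SNHG19 (-1.83 ± 0.14) and SNORA75 in NCL (-1.79 ± 0.12) followed without overlap, and the fitted value of SNORA70F, near background in uninduced U-H01, may be too small. Among the higher ones SNORD117, a C/D snoRNA in the RNA helicase gene DDX39B, had 7.27, 7.60, 7.36 and 7.25 on the U-H01 uninduced arrays, against 5.57 and 6.09 on the HBL-1 uninduced arrays (1.54 ± 0.14, adjusted p = 1.79e-06). It was joined by SNORA70B in USP34 (1.14 ± 0.11), SNORA38 (0.88 ± 0.11), SNORA5A in TBRG4 (0.83 ± 0.12), SNORD13P2 (0.69 ± 0.12) and SNORD33 (0.67 ± 0.15). Without the first HBL-1 uninduced array SNORD13P2 and SNORD33 no longer passed (adjusted p = 0.0687 and 0.179).

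Between U-H01 labelled induced and HBL-1 induced arrays the balance was different. Of 136 members 57 passed (41.9%), 33 higher and 24 lower, where 38.5% of all genes passed, 17.9% higher and 20.6% lower, and the median was 0.00. Leaving out the first HBL-1 induced array left 35 calls, 25 higher and 10 lower, and leaving out the second left 37, 16 higher and 21 lower, so the balance of directions turned with the array left out. SNORD50B (-0.33 ± 0.18, adjusted p = 0.188) and SNORD50A (0.02 ± 0.12, adjusted p = 0.916) did not pass here. This pair of contrasts shares no array, so their calls can be set side by side. The same direction was called in both for 31 members, 14 higher and 17 lower, which is 33.7% of the uninduced calls and 54.4% of the others, and 12 members were called in opposite directions. Of the 73 members lower in uninduced U-H01, 46 gave no call between the induced arrays. The same overlap was not counted over all genes. These counts therefore describe the members only and do not set them apart from other genes.

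SNORD117 was again among the highest differences, with 7.25, 6.71, 6.89 and 6.77 on the U-H01 labelled induced arrays, against 4.95 and 5.21 on the HBL-1 induced arrays (1.83 ± 0.14, 3.54-fold, adjusted p = 4.34e-07). SNORA37 in MBD2, a methyl-CpG binding protein gene, had 9.32, 9.14, 8.93 and 9.15 on the labelled induced arrays, against 7.44 and 7.45 on the HBL-1 induced arrays (1.70 ± 0.11, adjusted p = 1.15e-07). The other rises named by size were SNORA55 (1.24 ± 0.12), SNORA38 (1.07 ± 0.11), SNORD13P3 (1.02 ± 0.22) and SNORD13 (0.98 ± 0.17). SNORD13 and its pseudogene lost the call without the second HBL-1 induced array (adjusted p = 0.192 for SNORD13P3 and 0.0745 for SNORD13).

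SNORA70E, in RAB30, was the lowest in this contrast, with 5.55, 5.98, 5.38 and 5.79 on the U-H01 labelled induced arrays, against 7.46 and 7.40 on the HBL-1 induced arrays (-1.75 ± 0.13, adjusted p = 3.08e-07). RAB30 itself was lower by 3.40 on the log2 scale in the labelled induced arrays. SNORD104 in SNHG25 (-1.19 ± 0.11), SNORD45B (-1.14 ± 0.15) and SNORD45C (-1.03 ± 0.13) in RABGGTB, SNORA22 (-1.05 ± 0.21) and SNORA2B in KANSL2 (-0.98 ± 0.12) were lower too, and RABGGTB and KANSL2 were lower by 0.90 and 0.80. SNORA22 did not pass without the first HBL-1 induced array (adjusted p = 0.134).

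The populations B2 and B1 of U-H01 were compared within each state. In uninduced U-H01, 10 members passed (7.35%), 8 higher and 2 lower in B2, where 3.30% of all genes passed, 0.831% higher and 2.47% lower. Both measured SNORD14 genes were among them, U14 snoRNAs that take part in small subunit rRNA processing and lie in the chaperone gene HSPA8. SNORD14E had 7.71 and 7.57 in B2, against 5.76 and 5.84 in B1, a difference of 1.84 ± 0.14 (3.58-fold, adjusted p = 0.000144). SNORD14C had 9.35 and 9.20 in B2, against 8.35 and 8.15 in B1, a difference of 1.03 ± 0.14 (adjusted p = 0.00368). The B2 arrays lay above the B1 arrays for both, while HSPA8 itself differed by 0.28 ± 0.12 (adjusted p = 0.232).

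In GAS5, 4 members were higher in B2, SNORD75 (0.75 ± 0.11, adjusted p = 0.00560), SNORD74 (0.72 ± 0.11), SNORD78 (0.59 ± 0.12) and SNORD81 (0.52 ± 0.11), and its other 3 had positive differences of 0.28 to 0.56 that did not pass. Scaled on the members' median, 2 GAS5 members were called higher, and SNORD78 and SNORD81 no longer passed. Over all members that scaling gave 6 higher and 4 lower. With U-H01 fitted alone 7 of the 10 members kept the call, and SNORD12C, SNORD33 and SNORD81 did not. SNORD30 in SNHG1 had 8.61 and 8.76 in B2, against 7.80 and 7.88 in B1 (0.85 ± 0.11, adjusted p = 0.00253). SNORD12C was higher by 0.78 ± 0.16 (adjusted p = 0.0263), while its host ZFAS1 was lower by 0.49 ± 0.12 (adjusted p = 0.0416). SNORD33 in RPL13A (-0.58 ± 0.13) and SNORA49 in EP400 (-0.61 ± 0.12) were lower in B2. Leaving out any 1 of the uninduced U-H01 arrays left 2 to 4 calls, and SNORD14E passed in each such fit.

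In U-H01 labelled induced arrays 0 members passed between B2 and B1 in limma, where 0.109% of all genes passed, 0.0271% higher and 0.0814% lower, and 13 members had an unadjusted p under 0.05, as did 8.35% of all genes. SNORD14E had 7.59 and 7.91 in B2, against 7.58 and 7.83 in B1, a difference of 0.04 (95% interval -0.26 to 0.34). The test of the difference between the populations' changes gave 2 calls (1.47%), where 0.586% of all genes passed, 0.358% higher and 0.228% lower. They were SNORD14E (-1.80 ± 0.19, adjusted p = 0.00365) and SNORD30 (-1.03 ± 0.15, adjusted p = 0.0152), whose change with the label was lower in B2 than in B1. SNORD14E differed by 1.82 and 1.99 in the B1 pairs of arrays but by -0.12 and 0.34 in the B2 pairs, so its rise was seen in B1. SNORD30 lost its call without any 1 of the uninduced U-H01 arrays, and both lost it when all probe sets were tested together (adjusted p of 0.0718 and 0.0993).

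**Figure D5:**
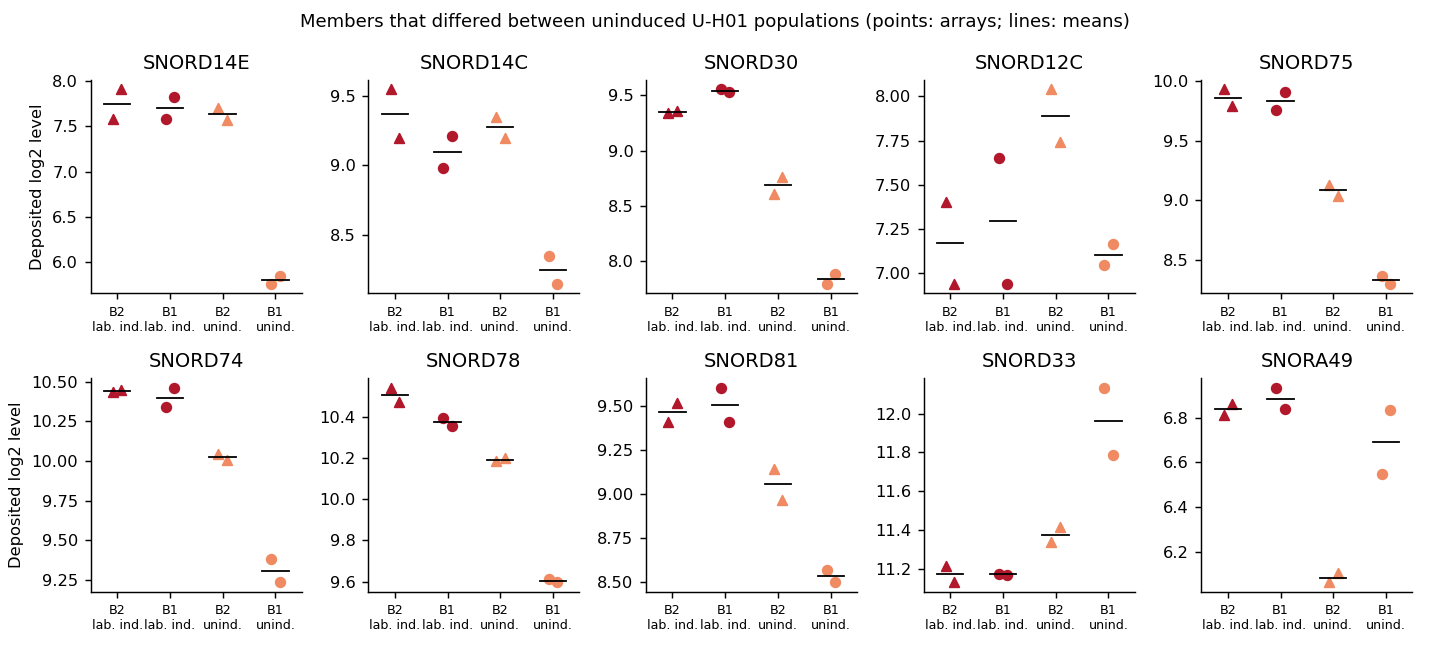
Deposited log2 levels of the 10 members that passed between B2 and B1 in uninduced U-H01, in population B2 (triangles) and B1 (circles), labelled induced (lab. ind.) and uninduced (unind.). Points are arrays (n = 2 each) and lines are means; axes differ between panels and do not start at 0. SNORD14E stands apart on the B1 uninduced arrays, at 5.76 and 5.84, and lies between 7.57 and 7.91 on the other 6.

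The proteins that bind, assemble and release snoRNAs were looked at from listed genes. Of 7 measured core proteins of the snoRNA particles, 2 rose and 2 fell between U-H01 labelled induced and uninduced arrays, where 45.8% of all genes passed, 22.3% higher and 23.5% lower. The H/ACA proteins NHP2 and NOP10 rose by 0.92 ± 0.11 and 0.88 ± 0.11, while GAR1 of the same particle fell by 0.48 ± 0.08 and the C/D protein NOP58 by 0.39 ± 0.08. The enzymes did not pass, with 0.10 ± 0.10 for FBL, the methyltransferase, and -0.06 ± 0.09 for DKC1, the pseudouridine synthase. Of 12 assembly factors 5 rose and 4 fell, from NOPCHAP1, a chaperone of NOP58, at 2.22 ± 0.11 to the helicase RUVBL2 at -0.89 ± 0.10. Of 11 genes of release and trimming 6 fell and 3 rose, and the median difference of this list was -0.28, beside 0.03 for all genes. Against that direction, the lariat debranching enzyme DBR1 rose by 0.49 ± 0.10 and the exosome subunit EXOSC10 by 0.83 ± 0.08. In HBL-1 0 of these 30 genes passed in limma, where 0.603% of all genes did, with 3 at an unadjusted p under 0.05. Uninduced U-H01 was lower than uninduced HBL-1 in 5 of the 7 core proteins and 8 of the 12 assembly factors, with 0 higher in these lists, where 42.8% of all genes passed, 20.7% higher and 22.1% lower. Of the 11 genes of release and trimming 2 were higher, PARN (0.45 ± 0.10) and EXOSC10 (0.30 ± 0.10), and 3 lower.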

How the data were processed

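Total RNA of 12 samples was isolated with RNeasy columns, amplified and hybridised to single-colour arrays, per the labels' protocols. Such columns retain short RNA poorly, which may understate mature snoRNAs. The authors deposited log2 values, for which the submitters' processing notes name RMA and Partek without versions. RMA makes the distributions of the arrays alike, so a change common to all genes would not show. The deposited log2 values run from 2.07 to 14.3, with array medians of 5.79 to 5.88. The number of arrays limits the precision.

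Of 33297 probe sets, 19460 have 1 symbol in the platform annotation, 1754 several and 12083 none. The probe set with the highest mean stood for each of 18417 genes. Identifiers of all 136 members matched RefSeq. Both SNORA10 probe sets hold identical values. RefSeq's table has no strand, so a host was the single gene whose span contains the member, on either strand.

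Comparisons came from linear models over all 12 arrays in limma 3.58.1 under R 4.3.3 (lmFit, eBayes). Benjamini-Hochberg adjustment ran over all probe sets with 1 symbol, and calls were made at 0.05. The model was tested on simulated data, with independent noise drawn from its own fitted spreads and few probe sets changed. Of 67 probe sets set 0.5 apart (log2), 60 were called for induction in U-H01 and 25 in HBL-1. Of 67 set 1 apart, 66 were called in each line. Of 19260 left unchanged, 14 were called in U-H01 and 13 in HBL-1. The simulation lacks the many differences and the possible technical repeats of the real arrays. It therefore gives no recovery or error rate for them. Values after ± are SE of the fit. Paired arrays of 1 population and time point come from 1 transduced population per the labels' protocols, and their deviations correlated at -0.02 to 0.14. Named genes were the 6 largest rises and falls that passed without overlap for induction in U-H01 and between lines, all calls elsewhere, and fixed families, hosts and pathway lists. Members and lists were chosen with earlier results of these data known. The test between lines' changes and the scaling on the members' median were added after seeing the data. Alternatives were quantile normalization, trended robust eBayes, all probe sets, probe sets above the median level, the probe set with the lowest mean, each array left out, the replicate block and each line fitted alone. Figures used matplotlib 3.10.9 under Python 3.11.15.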

Additional observations from a re-analysis of the deposited data

Results flagged for a closer look

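Among the named members, 6 sets of 4 U-H01 arrays held 1 array far from the other 3, as chance does in about 1 in 20 groups. Every named member was looked at in both U-H01 groups, so some such arrays arise by chance. SNORA5A was highest at 7.46 and SNORD50A highest at 8.92 on 1 labelled induced array each, and SNORD104 was lowest at 8.34 on 1 labelled induced array. On the uninduced side SNORD104 was lowest at 8.58, SNORA37 at 7.78 and SNORA75 at 6.62.

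Changes differed between populations or lines when the difference itself was tested in limma. Between B2 and B1 the change with the label was lower by 1.80 ± 0.19 for SNORD14E (-1.80) and by 1.03 ± 0.15 for SNORD30 (-1.03). Between U-H01 and HBL-1 the change was higher in U-H01 for SNORD50B (2.73), SNORD49A (2.70), SNORD50A (2.56), SNORD36B (2.27), SNORA70F (1.85), SNORD13 (1.53) and SNORD1A (1.20). It was lower in U-H01 for SNORA22 (-1.49), SNORA71A (-1.12) and SNORA71C (-1.05). All values are log2 differences, and the U-H01 labels carry the limit given with the array checks.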

How the results depend on the processing

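Over the alternatives, 854 of 935 values of named members kept direction and call, 81 kept direction without the call and 0 changed sign. Part of this tally was fixed in advance. No named member has several probe sets, so the probe set with the lowest mean gave the main values again. Leaving out an array of 1 line cannot change a difference within the other line, only its call. The U-H01 count of 80 stayed within 1.5 times under each alternative. With the median of the members set to 0 on each array it was 92, of which 24 were higher and 68 lower. The same scaling gave 101 calls between the uninduced lines, 59 higher and 42 lower, against 19 and 73, and 0 calls in HBL-1. It follows the members' median level and did not bring their median difference to 0. That difference was -0.26 in U-H01, 0.11 between the uninduced lines and -0.14 in HBL-1. HBL-1 gave 2 calls in the main setting, 1 with quantile normalization, 0 with all probe sets tested, 35 with HBL-1 fitted alone and 0 to 6 without single arrays. The share of all genes called was counted in the main setting only. The highest count, 6, came without U-H01 labelled induced replicate 4, with 5 without replicate 1, 4 without replicate 2 and 1 without replicate 3. With the replicate block, HBL-1 gave 0 calls, U-H01 80 and the B2 minus B1 difference 2, and the block changed no other call of a named member. In uninduced U-H01, B2 against B1 gave 5 calls with all probe sets, and 2 to 12 without single arrays: 4 without uninduced U-H01 replicate 1, 3 without replicate 2, 3 without replicate 3 and 2 without replicate 4. The difference of the populations' changes gave 0 calls with all probe sets, 4 with trended robust eBayes and 1 to 3 without single arrays, 1 without any single uninduced U-H01 array. U-H01 labelled induced against HBL-1 induced gave 35 to 58 calls without single arrays, 35 without HBL-1 induced replicate 1 (25 higher, 10 lower) and 37 without replicate 2 (16 higher, 21 lower). Between the uninduced lines the 19 higher calls were 6 without HBL-1 uninduced replicate 1. The cause of these shifts was not tested. Levels near background limit the chromosome 14 members and SNORA70F in uninduced U-H01.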

Other observations

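The small Cajal body RNAs (SCARNA), which guide the same modifications on spliceosomal RNA, were measured by 16 genes outside the members. Between U-H01 labelled induced and uninduced arrays 2 rose, SCARNA14 by 0.77 ± 0.16 and SCARNA16 by 0.34 ± 0.08, and 4 fell, with the largest fall for SCARNA8 (-0.69 ± 0.08), so 6 of 16 passed, where 45.8% of all genes did. Their median difference was -0.09, beside 0.24 for the members and 0.03 for all genes, and this contrast between the lists was not tested. Between uninduced U-H01 and uninduced HBL-1 arrays 2 were higher and 4 lower, where 42.8% of all genes passed.

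Of 6 measured B-lineage markers 3 rose and 1 fell between U-H01 labelled induced and uninduced arrays, and their mean level ran from 8.08 to 8.38 on the labelled induced arrays and from 6.18 to 6.44 on the uninduced ones. Of 6 Hodgkin cell markers 3 rose and 2 fell. Markers of other cells had mean levels below the array medians of 5.79 to 5.88, though close to them for stroma, endothelium and epithelium. The levels were 4.96 to 5.17 on labelled induced and 4.77 to 4.99 on uninduced arrays for 6 T and NK cell genes, of which 2 rose. For 6 myeloid genes they were 4.09 to 4.34 and 4.06 to 4.16, with 0 calls in limma, and for 8 genes of stroma, endothelium and epithelium 5.55 to 5.76 and 5.46 to 5.68, with 1 rise. The part of these markers in the snoRNA results was not tested.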
